A study of Mus musculus with 29 samples.

Results

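The genes described here carry glucose into the cell and turn it into lactate. They are 10 genes listed by name: the glucose transporters Slc2a1 and Slc2a3, the hexokinases Hk1 and Hk2, the phosphofructokinase Pfkp and its activator Pfkfb3, Pgk1, Ldha, the lactate exporter Slc16a3 and the pyruvate dehydrogenase kinase Pdk1. All 10 were among the 14602 genes measured, through 24 probe sets, of which 20 passed the filter on low signals described below. The list was selected on the array signal of Slc2a3, which had been seen to be high in some relapsed tumours of this series. Member values in recurrences against primaries are therefore given as descriptions, without a test.

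Glucose enters cells down its gradient through transporters of the SLC2A family, and hexokinases trap it as glucose 6-phosphate. Phosphofructokinase then commits it to glycolysis, and lactate dehydrogenase and the monocarboxylate transporters dispose of the pyruvate as lactate. Pyruvate dehydrogenase kinases block the alternative route into mitochondria by phosphorylating pyruvate dehydrogenase. Many of these genes are known targets of the hypoxia-inducible factor HIF-1 and of MYC.

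Affymetrix arrays, 1 per sample, measured RNA of 28 lung tumours and 1 normal lung from mice, and all mice were of a mixed 129/Bl6 background. The groups were 6 recurrences of TI-KM tumours, 14 TI-KM primary tumours, 8 TI-K primary tumours and 1 normal lung. TI-K mice carried CCSP-rtTA, a doxycycline-dependent activator driven by a promoter of airway club cells, and an oncogenic transgene under its control; TI-KM mice carried TRE-Mad2, a spindle checkpoint transgene, as well. The normal lung came from a mouse with CCSP-rtTA alone, so this driver was shared by all 4 groups. The labels call the tumours adenocarcinoma or adenoma. They name no animals, doses or ages, so the spread between samples may be partly technical, and TI-KM primaries 1 and 2 share a title number and may come from 1 animal.

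Signals are MAS5 intensities on a linear scale, and differences are on the log2(signal + 20) scale, which understates changes of weak signals. A probe set was kept when its signal was above the array's 40th percentile on 6 or more arrays. The kept probe set with the highest mean stands for its gene, and a gene was called changed at a limma adjusted p below 0.05 over all 14602 genes. Array medians were 69.9 to 170. The 18S ribosomal control signal was above 12000 in recurrences 1 to 4, TI-KM primaries 1 to 6 and the normal lung (12569), here called the high-18S arrays, and 5939 to 10857 in all others. TI-K primaries 1 to 5 carry far higher title numbers than the other tumours, and 13 tumours, namely recurrences 5 and 6, TI-KM primaries 7 to 14 and TI-K primaries 6 to 8, remain. These 3 sets split the groups unevenly, so pooled values are given beside those fitted with the sets as a block and those within a set. TI-K primaries 1 to 5 form a set that holds no other group. Every block value against TI-K primaries therefore rests on TI-K primaries 6 to 8, as do the values among the remaining arrays. RNA integrity was read from the log2 3'/5' ratio of control transcripts, which was 1.32 ± 0.45 in recurrences (SD, n = 6), 2.16 ± 0.67 in TI-KM primaries (n = 14) and 2.16 ± 0.41 in TI-K primaries (n = 8). The 6 measured alveolar type II markers, such as surfactant protein genes, summed to 63774 to 122203 in recurrences, 83405 to 131264 in TI-KM primaries, 97158 to 144846 in TI-K primaries and 44076 in the normal lung. Mad2l1, the endogenous gene of the Mad2 transgene, averaged 868 ± 563 in recurrences, 751 ± 207 in TI-KM primaries and 938 ± 319 in TI-K primaries, and was 340 in the normal lung. Its difference between TI-KM and TI-K primaries was -0.29 ± 0.22 SE (limma adjusted p = 0.398), so no difference between the genotypes was called for it.

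The stretches just upstream of the transcription starts were read for a HIF motif. The choice of genes did not use sequence, but many of them are known HIF-1 targets. Matches to the motif are therefore not independent of the choice. RefSeq windows of the GRCm38.p6 genome, 250 bases before to 50 after a start, were on hand for 9 of the 10 genes, in 13 windows. Slc2a3, the gene behind the choice of the list, had none. The 250 bases before the start are printed for Slc2a1, Hk2 and Pgk1, which include the pairs of genes whose signals went together most closely within groups and sets, and for the first window of Ldha, the one with most matches. Capitals mark ACGTG on either strand, a form of the core of the HIF binding motif. The other form, GCGTG, was not searched.
Slc2a1 (chr4:119108495-119108744, plus strand): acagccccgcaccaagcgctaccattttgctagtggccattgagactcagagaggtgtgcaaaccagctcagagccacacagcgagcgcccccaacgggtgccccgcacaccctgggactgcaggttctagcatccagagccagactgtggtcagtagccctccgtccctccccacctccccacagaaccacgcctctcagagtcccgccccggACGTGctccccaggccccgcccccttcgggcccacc
Hk2 (chr6:82774455-82774704, minus strand): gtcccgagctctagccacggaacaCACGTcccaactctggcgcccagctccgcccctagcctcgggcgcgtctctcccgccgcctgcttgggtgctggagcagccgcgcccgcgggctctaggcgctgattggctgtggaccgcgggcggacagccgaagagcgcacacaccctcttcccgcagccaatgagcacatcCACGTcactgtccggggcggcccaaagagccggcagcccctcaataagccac
Pgk1 (chrX:106186850-106187099, plus strand): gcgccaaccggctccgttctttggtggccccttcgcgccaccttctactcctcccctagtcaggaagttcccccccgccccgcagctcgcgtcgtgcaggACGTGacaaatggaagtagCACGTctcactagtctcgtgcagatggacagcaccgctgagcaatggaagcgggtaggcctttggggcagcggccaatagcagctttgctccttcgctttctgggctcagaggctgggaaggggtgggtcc
Ldha (chr7:46845554-46845803, plus strand): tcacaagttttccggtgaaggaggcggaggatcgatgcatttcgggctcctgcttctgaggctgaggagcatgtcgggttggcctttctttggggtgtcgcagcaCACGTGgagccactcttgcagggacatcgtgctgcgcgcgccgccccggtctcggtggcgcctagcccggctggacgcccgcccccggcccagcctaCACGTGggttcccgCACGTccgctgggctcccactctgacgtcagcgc

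ACGTG was found on either strand in at least 1 window of 7 of the 9 genes and in 8 of the 13 windows (61.5%). Of all 32851 windows, 19.6% held it. The windows of these genes are rich in CG, with a median of 21.0 CG dinucleotides (1 to 36) against 7.0 in all windows, and 28% of the 14281 windows with at least 10 CG held the motif. The E-box CACGTG, which contains ACGTG on both strands and is the core motif of MYC, was found in Pfkfb3 and Ldha, that is in 2 of the 13 windows (15.4%), where 7.15% of all windows held it. ACGTG was absent from the windows of Pfkp and Pdk1, in which the form GCGTG was not searched. Neither of the 2 matches of Hk1 lay within the 250 bases before the start. A match is a string of letters and not a measured binding site.

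Slc2a3 encodes GLUT3, a high-affinity glucose transporter best known from neurons and also carried by platelets and leukocytes. Its signal was 1507, 9851, 1483, 365, 11031 and 642 in recurrences 1 to 6. In the 14 TI-KM primaries the lowest signal was 34.1, the median 227 and the highest 670. In the 8 TI-K primaries the lowest was 106, the median 335 and the highest 2563, and the normal lung had 1972. Recurrences 1, 2, 3 and 5 lay above every TI-KM primary, recurrence 6 just below the highest of them and recurrence 4 well inside their range. Recurrences 2 and 5 alone exceeded all 22 primaries, because TI-K primaries 3 and 5, at 2013 and 2563, were higher than recurrences 1 and 3.

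The mean of the recurrences lay 3.05 ± 0.61 SE above that of TI-KM primaries on the log2 scale and 2.10 ± 0.68 above that of TI-K primaries. These values follow from the choice of the gene. At least 4 recurrences above every TI-KM primary were found for 0.74% of all genes. With the sets as a block the differences were 2.90 and 2.82. The second of these gives no weight to TI-K primaries 3 and 5, whose set holds no other group. Among high-18S arrays the recurrences had 365 to 9851 and the TI-KM primaries 203 to 670, a difference of 2.19 with 3 of 4 recurrences on top. Among the remaining arrays recurrences 5 and 6 had 11031 and 642, TI-KM primaries 34.1 to 333 and TI-K primaries 106 to 298, so both recurrences lay above all 11 primaries of that set. Their mean was 3.97 above that of TI-KM primaries and 3.67 above that of TI-K primaries there. How many of all genes separate so in that set was not counted.

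A further kept probe set of Slc2a3 also had recurrences 2 and 5 above all other tumours. It read 694, 7368, 1016, 195, 8963 and 359 in recurrences 1 to 6, with 57.0 to 435 in TI-KM primaries and 77.3 to 1445 in TI-K primaries, and its difference between recurrences and TI-KM primaries was 3.08. Across the 28 tumours its correlation with the first probe set was 0.98. Both are of the _s_at and _x_at types, whose probes can match more than 1 transcript. The other pair of probe sets named for the gene failed the filter, with signals of at most 87.5 and 32.3 in recurrences. In the first, recurrence 2 was highest (87.5), with TI-KM primaries at up to 83.7. In the second, recurrences 1, 2 and 5 (8.79, 13.9 and 32.3) lay above all primaries, which reached 8.49 in TI-KM and 4.86 in TI-K. Recurrences 3, 4 and 6 (5.21, 2.88 and 2.37) did not. These signals are near the floor.

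The neutrophil and platelet markers were read beside Slc2a3, since both cell types carry GLUT3. The 6 measured neutrophil markers of 7 summed to 1687, 6454, 4732 and 1351 in recurrences 1 to 4 and to 442 in recurrence 6, with recurrence 5 between the last pair, to 659 to 4640 in TI-KM primaries and to 639 to 5752 in TI-K primaries. The 3 measured platelet markers of 4 summed to 3496 to 10244 in recurrences, with recurrence 5 highest, to 1848 to 14665 in TI-KM primaries and to 1575 to 8801 in TI-K primaries. None of these markers was at 0. Recurrence 2 had the highest neutrophil sum of all tumours, while recurrence 5, with the highest Slc2a3, was near the low end of the primaries. The part of these cells in the Slc2a3 signal was not tested, and in bulk tissue fewer cells of a type and less RNA per cell cannot be told apart.

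Slc2a1 encodes GLUT1, the widely expressed transporter of basal glucose uptake. Its signal was 3061, 4469, 10010, 1699, 1700 and 1299 in recurrences 1 to 6. TI-KM primaries had 1577 to 5276 with a median of 2659, TI-K primaries 1197 to 3577 with a median of 2239, and the normal lung 981. Recurrence 3 was the highest of the 28 tumours, and recurrences 4, 5 and 6 had ranks 25, 24 and 27 of 28. The means therefore hardly differed, at 0.10 ± 0.29 SE for recurrences over TI-KM primaries and 0.28 ± 0.32 over TI-K primaries. Recurrences were 0.45 above TI-KM primaries among high-18S arrays and at -0.74 among the remaining arrays, and without recurrence 3 the pooled difference was -0.26.

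GLUT1 and GLUT3 transcripts did not go together. Recurrence 5 combined the highest Slc2a3 of all arrays with a Slc2a1 signal lower than that of most tumours, recurrence 3 combined the highest Slc2a1 with a middling Slc2a3 among relapses, though still above every TI-KM primary, and recurrence 2 ranked next to the highest relapse for both genes. Across the 28 tumours the correlation was 0.13 on the log2 scale, given as a description.

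**Figure D1:**
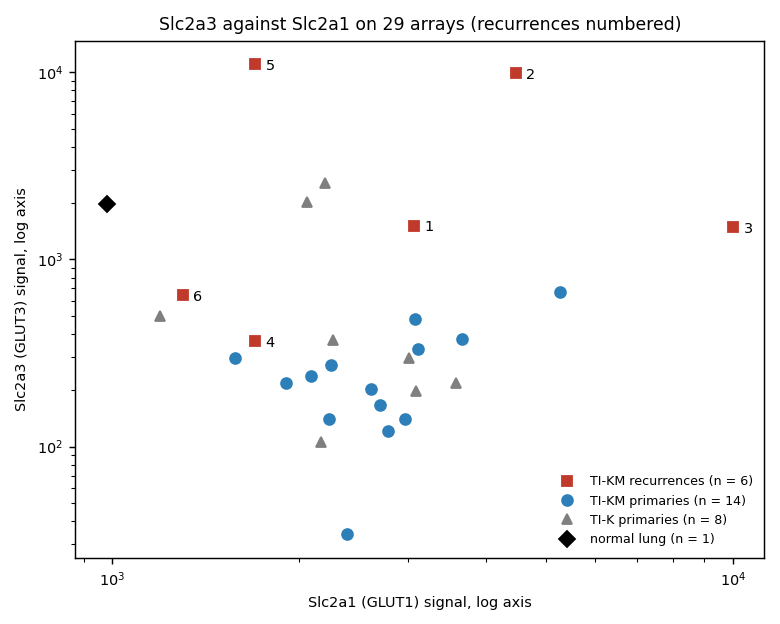
Slc2a3 signal against Slc2a1 signal on log axes, 1 point per array, with the recurrences numbered. Recurrences 2 and 5 stand above all primaries in Slc2a3, recurrence 3 stands to the right of all arrays in Slc2a1, and the normal lung has the lowest Slc2a1 (981).

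Hexokinase 2, the inducible isoform bound to mitochondria, gave 1140, 3010, 7131, 1862, 2736 and 2677 in recurrences 1 to 6. TI-KM primaries had 1048 to 3864 with a median of 2342, TI-K primaries 1872 to 3918 with a median of 2500, and the normal lung 11660. Recurrence 3 again was the highest tumour and recurrence 1 among the lowest. The mean difference was 0.33 ± 0.27 SE between recurrences and TI-KM primaries, and 0.04 without recurrence 3. It was 0.07 ± 0.30 against TI-K primaries.

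Hk1, the hexokinase expressed in most tissues, had 2365, 4413, 4155, 2363, 1382 and 1737 in recurrences 1 to 6. TI-KM primaries had 841 to 3576 with a median of 1704, TI-K primaries 1001 to 2450 with a median of 1412, and the normal lung 1822. Recurrences 2 and 3 were the highest tumours. The difference of recurrences was 0.53 ± 0.25 SE against TI-KM primaries and 0.76 ± 0.28 against TI-K primaries, and shrank to 0.33 and 0.082 with the sets as a block. High-18S tumours of both kinds had the higher signals, 2363 to 4413 in recurrences and 1659 to 3576 in TI-KM primaries, against 1382 to 1737 and 841 to 1995 among the remaining arrays.

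Pfkp, the platelet-type phosphofructokinase, had 1935, 1372, 1769, 1051, 1207 and 634 in recurrences 1 to 6. TI-KM primaries had 331 to 1216 with a median of 820, TI-K primaries 937 to 1574 with a median of 1154, and the normal lung 2985. Recurrences 1, 2 and 3 lay above every TI-KM primary, and the difference was 0.72 ± 0.22 SE. The other kept probe set, which is weaker, differed by 0.063, and the one that failed the filter by 0.82. Among high-18S arrays the 4 recurrences had 1051 to 1935 and the 6 TI-KM primaries 331 to 820 (difference 1.37). How many of all genes separate so in that set was not counted, and limma called 1 of 14602 genes in that fit. Among the remaining arrays recurrences had 634 and 1207 and TI-KM primaries 735 to 1216, a difference of -0.084. The difference from TI-K primaries was 0.06 ± 0.24.

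Pfkfb3 makes fructose 2,6-bisphosphate, the strongest activator of phosphofructokinase. Its signal was 809, 684, 790, 516, 454 and 269 in recurrences 1 to 6, with 207 to 569 and a median of 387 in TI-KM primaries, 312 to 665 and a median of 410 in TI-K primaries, and 1312 in the normal lung. Recurrences 1, 2 and 3 were the highest tumours of all 28. The mean difference was 0.48 ± 0.21 SE against TI-KM primaries, 0.73 among high-18S arrays and -0.10 among the remaining ones. A weaker probe set of the gene gave -0.25. In recurrence 1, where Pfkp and Pfkfb3 had their tumour maximum, the 4 measured lymphocyte markers of 5 summed to 14443, against 229 to 1345 in the other recurrences and 152 to 1700 in TI-KM primaries. Their part in these signals was not tested.

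The enzymes of the lower pathway had the narrowest ranges over the 28 tumours. Pgk1, which makes the first ATP of glycolysis, had 13667, 14130, 14063, 8034, 16848 and 17256 in recurrences 1 to 6, 10108 to 22212 in TI-KM primaries, 12136 to 22092 in TI-K primaries and 25029 in the normal lung. Recurrence 4 was the lowest tumour. Ldha, which reduces pyruvate to lactate, had 11190 to 19296 in recurrences, 8350 to 18331 in TI-KM primaries, 12516 to 16738 in TI-K primaries and 15913 in the normal lung, and the groups overlapped throughout. The differences of recurrences from TI-KM primaries were -0.22 ± 0.17 SE for Pgk1 and 0.14 ± 0.14 for Ldha. A second strong probe set of Pgk1 gave -0.12 and the third -0.70.

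Slc16a3 encodes MCT4, the lactate exporter of glycolytic cells, and its array signal was weak. It read 161, 156, 184, 105, 25.5 and 43.7 in recurrences 1 to 6, 26.3 to 253 with a median of 90.7 in TI-KM primaries, 35.2 to 124 with a median of 69.1 in TI-K primaries and 89.3 in the normal lung. It followed the sets more than the groups: the signal was 105 to 184 in high-18S recurrences and 98.9 to 253 in high-18S TI-KM primaries, against 25.5 to 43.7 and 26.3 to 93.0 in the remaining ones. The difference of recurrences from TI-KM primaries was 0.08 ± 0.33 SE, and -0.22 with the sets as a block.

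**Figure D2:**
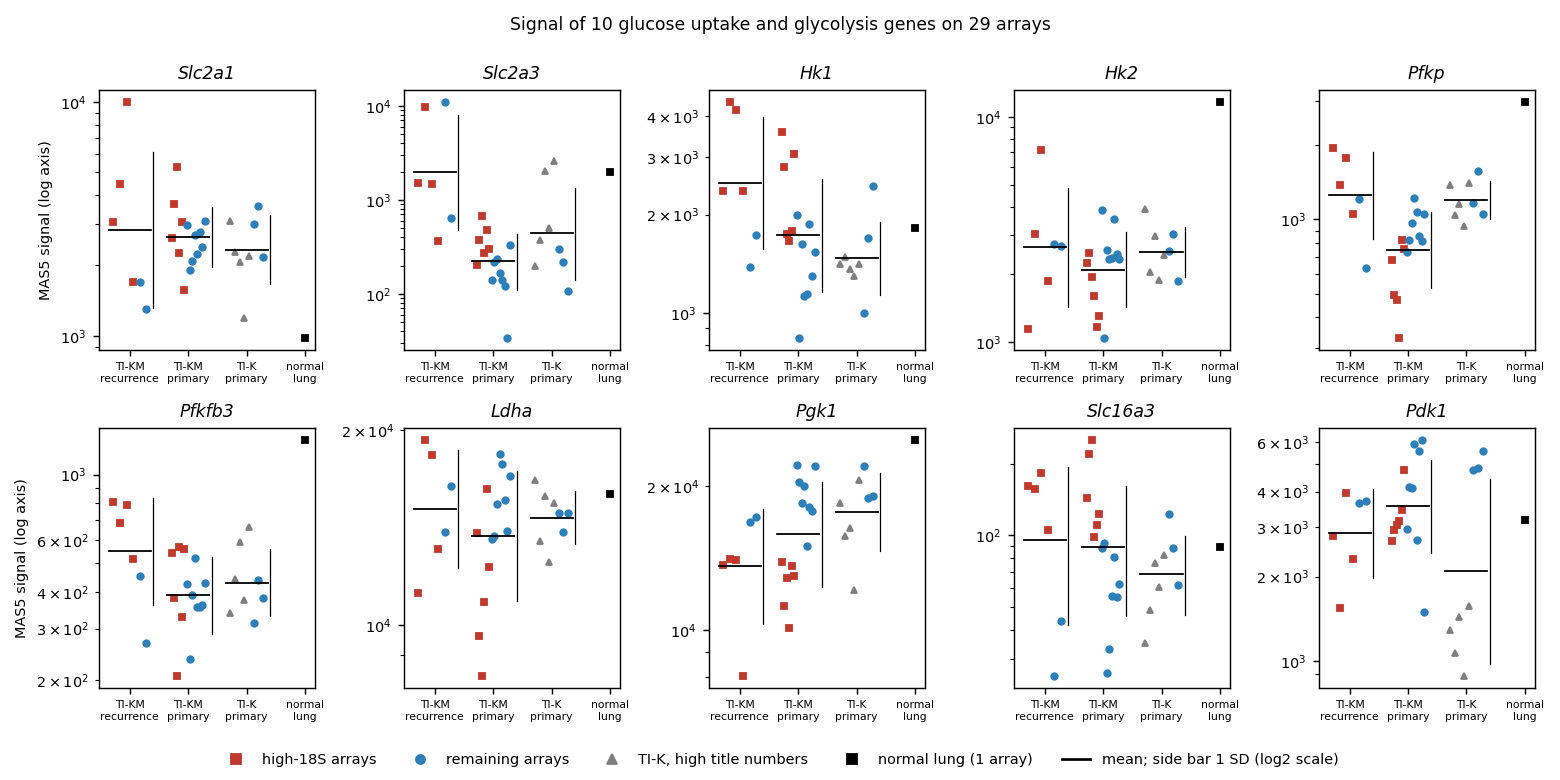
Signal of each gene on a log axis, 1 point per array, in recurrences, TI-KM primaries, TI-K primaries and the normal lung, with the set of each array by colour and shape. Horizontal lines are means and side bars 1 SD on the log2 scale; Slc2a3 has the widest spread, and Hk2, Pfkp and Pfkfb3 are highest in the normal lung (11660, 2985 and 1312).

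Pdk1 phosphorylates and so inactivates pyruvate dehydrogenase. Its signal was 2791, 1541, 3949, 2310, 3637 and 3718 in recurrences 1 to 6, 1496 to 6106 with a median of 3290 in TI-KM primaries, and 3182 in the normal lung. TI-K primaries divided into 889 to 1568 in replicates 1 to 5 and 4794 to 5598 in replicates 6 to 8, the same division as their title numbers. The pooled difference of recurrences from TI-K primaries, 0.44 ± 0.37 SE, was -0.63 with the sets as a block, and from TI-KM primaries it was -0.32 ± 0.33 and -0.24 with the block.

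The other probe sets of Pdk1 shared this division only in part. One had 216 to 542 in TI-K primaries 1 to 5 and 1241 to 1582 in 6 to 8. Another had 363 to 582 in the first 5 and 460 to 499 in the other 3, with no such gap. The second of these read 1617 in the normal lung, above all tumours (307 to 796). The last probe set failed the filter.

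**Figure D3:**
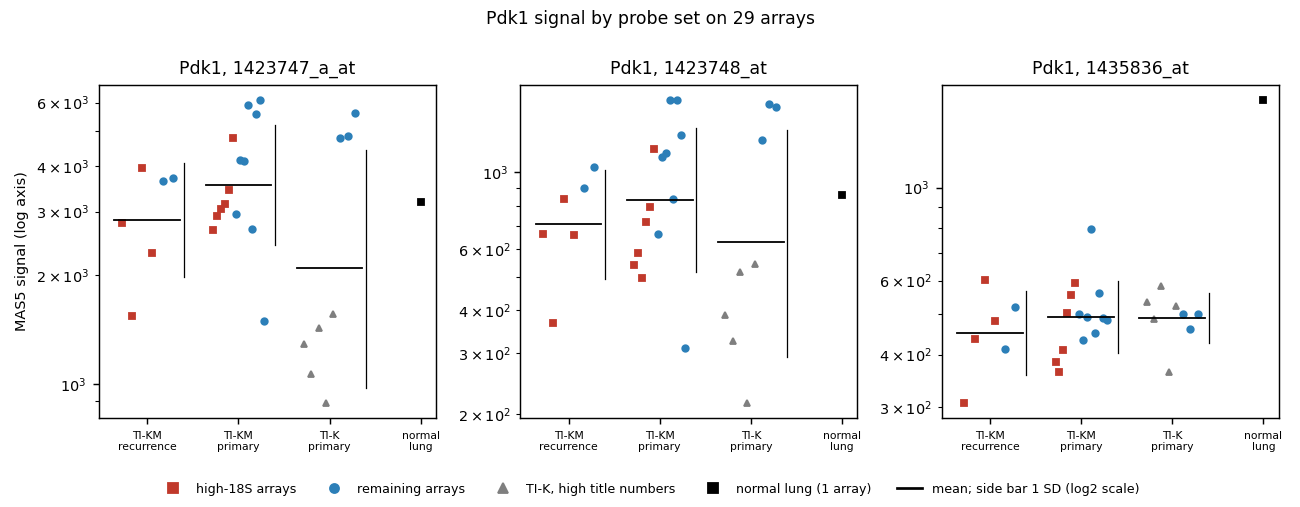
Signal of the 3 kept Pdk1 probe sets on a log axis, 1 point per array, by group and set, with means and 1 SD on the log2 scale. In the left and middle panels the 5 TI-K primaries with high title numbers lie below the other 3, and in the right panel they do not.

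Taken gene by gene, the relapses fell into different patterns. Of the 10 genes, 3 were above every TI-KM primary in recurrence 1 (Slc2a3, Pfkp and Pfkfb3), 5 in recurrence 2 (the same with Hk1 and Ldha) and 6 in recurrence 3 (the first 3 with Slc2a1, Hk1 and Hk2). Recurrence 5 had 1, Slc2a3, and recurrences 4 and 6 had 0. The share of all genes above every TI-KM primary was 19.5%, 11.5%, 11.1%, 7.16%, 6.42% and 4.76% in recurrences 1 to 6. Below every TI-KM primary were Pgk1 in recurrence 4, Slc16a3 in recurrence 5 and Slc2a1 in recurrence 6, against 6.17%, 6.05% and 9.43% of all genes, and none of the 10 in recurrences 1 to 3, against 13.9%, 9.67% and 12.7%. Recurrences 1 to 3, with the most members on top, are high-18S arrays, as is recurrence 4. The part of the set was not tested.

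**Figure D4:**
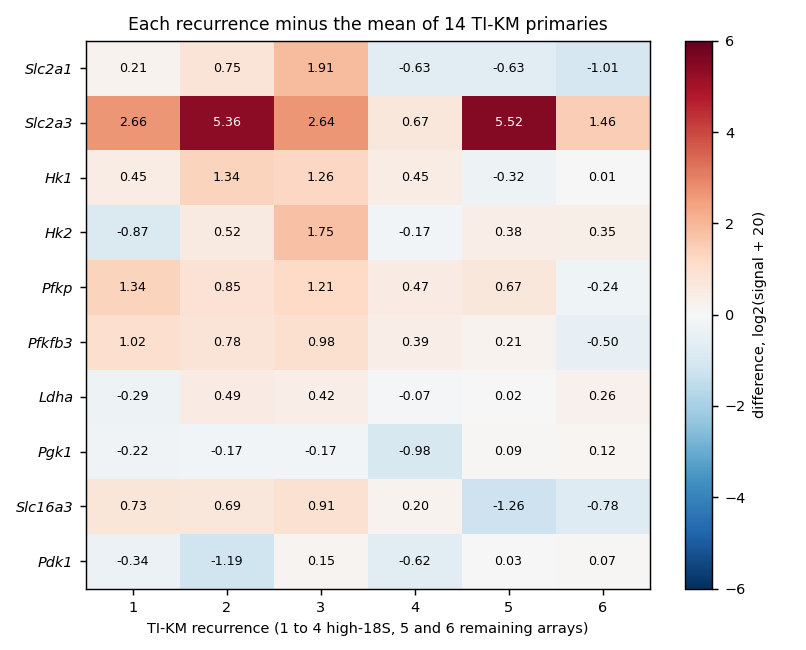
Difference of each recurrence from the mean of the 14 TI-KM primaries on the log2(signal + 20) scale, 1 row per gene and 1 column per recurrence. Slc2a3 is 5.36 and 5.52 above that mean in recurrences 2 and 5, while Pgk1 is at -0.98 in recurrence 4.

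The spread within the relapses differed widely between genes. The SD over the 6 recurrences was 2.00 for Slc2a3 on the log2 scale, larger than for 99.4% of all genes, and 1.10 for Slc2a1 (91.8%) and 0.87 for Hk2 (81.9%). It was 0.30 for Ldha (18.9%). In TI-KM primaries the SD was 0.90 for Slc2a3, 0.42 for Slc2a1 and 0.33 for Ldha, and in TI-K primaries 1.54, 0.48 and 0.13. Over all 10 genes the median difference of recurrences was 0.23 against TI-KM primaries, with 8 of 10 above 0, where the median of all genes was 0.04 and 55.4% lay above 0. Against TI-K primaries it was 0.31, where all genes had 0.11. These values belong to the contrast behind the choice of genes and are descriptions.

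The 10 genes were only loosely tied to each other across the 28 tumours. Of 45 pairs, 4 had a Pearson correlation above 0.5 and 0 one below -0.5, with a median of 0.16. The points share their arrays and sets. After removal of group and set means, Slc2a1 went most closely with Hk2 (0.70, against 0.47 before) and with Pgk1 (0.56, against 0.03 before), the genes whose upstream stretches are printed above. Hk1 and Slc16a3 had 0.56 before and -0.01 after.

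The genes whose pattern was most like that of Slc2a3 were sought over the 28 tumours by Pearson correlation. They were Enah, an actin regulator, at 0.76, Mx1, an interferon-induced GTPase, at 0.74, Obsl1, a cytoskeletal adaptor, at 0.73, Ptprz1, a receptor phosphatase, at 0.72, and Gstm2, a glutathione transferase, at 0.72. Without recurrences 5 and 2, the tumours farthest from the Slc2a3 median, they had 0.66, 0.54, 0.78, 0.69 and 0.63. Over the 22 primaries alone they had 0.62, 0.63, 0.80, 0.68 and 0.50. Enah had 6656 and 1504 in recurrences 2 and 5, 148 to 1951 in TI-KM primaries and 352 to 1917 in TI-K primaries.

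TI-KM and TI-K primaries differ in the Mad2 transgene, and the choice of genes did not use this comparison itself. The primary values of Slc2a3 do belong to the contrast behind its choice, so its result here is not independent of that choice. Pfkp was the 1 gene of the 10 that passed the test, in a comparison in which limma called 8.01% of all genes. It was lower in TI-KM primaries, at 792 ± 245 (SD, n = 14) against 1210 ± 217 in TI-K primaries (n = 8), a difference of -0.65 ± 0.20 SE (limma adjusted p = 0.0406), and 10 of 14 TI-KM tumours lay below every TI-K tumour. The share of all genes with as many below was not counted. In the other direction and at a looser cut, 40% of all genes had at least 4 TI-KM primaries above every TI-K primary. That value is not the share for the 10 of 14 of Pfkp. The gene had other probe sets too. The other kept probe set of Pfkp differed by -0.61, and the one that failed the filter by 0.34. The Pfkp call was lost when the sets were fitted as a block (-0.59, limma adjusted p = 0.975) and among the remaining arrays (-0.41, adjusted p = 0.743), where limma called 0 genes in all, with 707 and 1026 at an unadjusted p below 0.05. It was also lost without any 1 of TI-KM primaries 1 to 6 or TI-K primaries 1 to 5 and 7, at adjusted p up to 0.0874.

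Of the other 9 genes, Slc2a3 differed by -0.95 ± 0.56 SE (limma adjusted p = 0.262) and Pdk1 by 0.76 ± 0.30 (adjusted p = 0.100). Pdk1 passed without TI-K primary 6 or without TI-K primary 8 (adjusted p = 0.045 and 0.0341), and turned to -0.38 with the sets as a block. The remaining 7 lay between -0.26 for Hk2 and 0.30 for Slc16a3, with adjusted p of at least 0.508. The median over the 10 genes was -0.12, and that of all genes 0.08.

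Against the normal lung, hexokinase 2 was lower in every tumour, a count given without a share over all genes. The difference was -2.14 ± 0.60 SE in recurrences (limma adjusted p = 0.0156), -2.46 ± 0.57 in TI-KM primaries (adjusted p = 0.00288) and -2.20 ± 0.58 in TI-K primaries (adjusted p = 0.00954). Pfkfb3 was lower in TI-KM primaries (-1.70 ± 0.45, adjusted p = 0.00866) and in TI-K primaries (-1.57 ± 0.46, adjusted p = 0.0196). A weaker kept probe set of Pfkfb3 did not show this, at 0.31 in recurrences, 0.57 in TI-KM primaries and -0.16 in TI-K primaries. Pfkp was lower in TI-KM primaries (-1.96 ± 0.46, adjusted p = 0.00338), with -0.84 at its weaker kept probe set. In recurrences the values of these genes were -1.22 for Pfkfb3 (adjusted p = 0.0866) and -1.24 for Pfkp (adjusted p = 0.0902), with all 6 below the normal lung.

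This made 1 of 9 genes tested in recurrences, 3 of 10 in TI-KM primaries and 2 of 10 in TI-K primaries, all lower, where limma called 12.5%, 14.9% and 13.5% of all genes. The medians over the 10 genes were -0.12, -0.44 and -0.55, and those of all genes 0.14, 0.10 and -0.00088. The 3 comparisons share the 1 normal array, whose spread was taken to equal that of the tumours. The normal lung is a high-18S array, so the high-18S fits compare within a set. There limma called 0 of 9 genes in recurrences, with 3 at an unadjusted p below 0.05, and 4 of 10 in TI-KM primaries, all lower, where it called 11.8% and 15.2% of all genes. With only the remaining tumours against that same array, where set and group cannot be told apart, the counts were 3, 5 and 4, where limma called 20.1%, 26.2% and 23.8% of all genes. The 5 in TI-KM primaries include Slc2a3, whose primary values belong to the contrast behind its choice. Slc2a1 was the 1 gene called higher, in both kinds of primaries. With arrays scaled to a common median, which moved the median of all genes by at most 0.13, recurrences and TI-K primaries had 0 calls.

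Slc2a1 went the other way, above the normal lung in all 28 tumours, a count also given without a share over all genes. The differences were 1.51 ± 0.64 SE in recurrences, 1.41 ± 0.61 in TI-KM primaries and 1.24 ± 0.63 in TI-K primaries, and did not pass (limma adjusted p = 0.124, 0.129 and 0.213). Within the high-18S set the differences were 1.97 in recurrences and 1.53 in TI-KM primaries, and did not pass (adjusted p = 0.113 and 0.183). With the remaining tumours Slc2a1 passed in TI-KM primaries (1.33, adjusted p = 0.00293) and TI-K primaries (1.52, adjusted p = 0.00243), though not in recurrences (0.59, adjusted p = 0.228). For Slc2a3 the mean of the recurrences differed from the normal lung by 0.0051 ± 1.36 SE (not tested), with 2 recurrences above it and 4 below. The further kept probe set gave 0.50 there. Slc2a3 was at -3.05 ± 1.30 in TI-KM primaries (limma adjusted p = 0.122) and at -2.09 ± 1.33 in TI-K primaries (adjusted p = 0.344). With the remaining tumours Slc2a3 passed in TI-KM primaries (-3.53, limma adjusted p = 0.0213), and within the high-18S set it did not (-2.41, adjusted p = 0.172). The primary values of Slc2a3 belong to the contrast behind its choice. Its tests against the normal lung are therefore not independent of that choice and are no more than descriptions. Pgk1 was below the normal lung in all 28 tumours, at -0.88, -0.66 and -0.50 in recurrences, TI-KM primaries and TI-K primaries, and did not pass (limma adjusted p = 0.118, 0.239 and 0.421). Within the high-18S set it passed in TI-KM primaries (-1.01, adjusted p = 0.0453). The share of all genes that lie on the same side of the normal array in all 28 tumours was not counted. At the probe sets that stand for them, Hk1, Ldha, Slc16a3 and Pdk1 differed by at most 0.60 in size in any group of the pooled fit. The other kept probe sets of Pdk1 gave -1.80, -1.68 and -1.68, and -0.27, -0.040 and -0.44, in recurrences, TI-KM primaries and TI-K primaries. That of Hk1 gave 0.72, -0.23 and -0.65 in the same order.

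**Figure D5:**
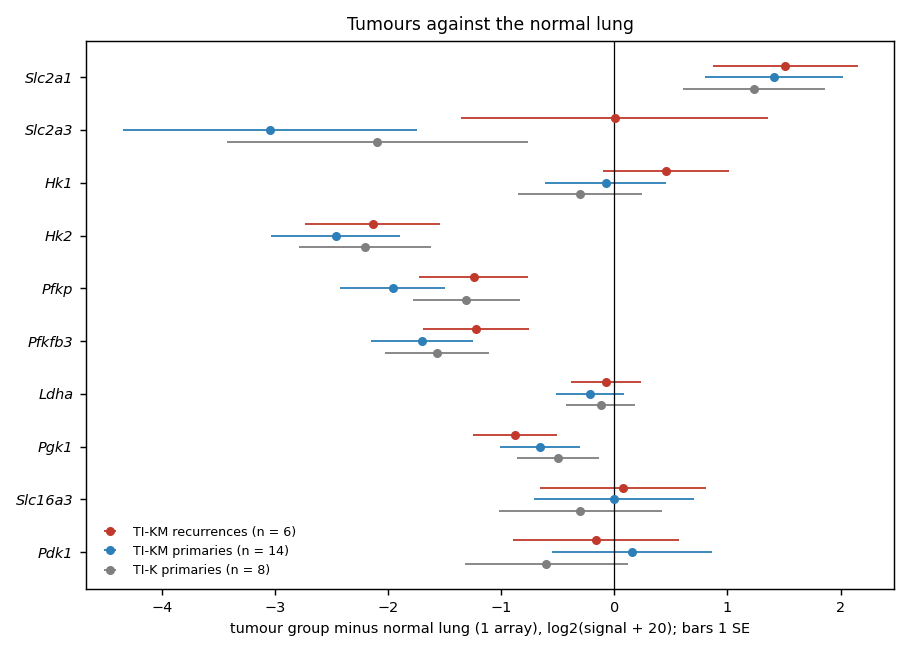
Difference of each tumour group from the 1 normal lung array on the log2(signal + 20) scale, with bars of 1 SE, by gene. Slc2a1 lies right of 0 in all 3 groups (1.51, 1.41 and 1.24), and Hk2, Pfkp and Pfkfb3 lie left of it.

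The normal lung sample stood apart in markers of other tissue. The 3 measured fat markers of 6, Cidea, Thrsp and Car3, summed to 230 to 1761 in recurrences, 103 to 601 in TI-KM primaries, 98 to 608 in TI-K primaries and 75733 in the normal lung. Its platelet sum of 16230 and endothelial sum of 8635 were also above every tumour. The 2 measured erythroid markers of 4 summed to 4691 there, against at most 579 in any tumour. Its club, fibroblast and striated muscle sums (74615, 25003 and 3067) lay slightly above the highest tumour (69238, 24213 and 3041). Hk2 is known from fat and muscle, and Pfkp from platelets. The part of these tissues in the lower tumour values was not tested.

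The rest of the glucose pathway was followed through 92 further genes, of which 80 were measured and the other 12 were not analysed here. In recurrences against TI-KM primaries limma called 0 higher and 1 lower, with 16 at an unadjusted p below 0.05, where it called 0.26% of all genes (0.0411% higher and 0.219% lower). That gene was Pfkfb2, the isoform of Pfkfb3 best known from heart. Its signal was 271, 577, 367, 440, 654 and 589 in recurrences 1 to 6, 537 to 1443 in TI-KM primaries, 915 to 1842 in TI-K primaries and 565 in the normal lung. The difference was -0.89 ± 0.20 SE (limma adjusted p = 0.0422). It was -0.77 with the sets as a block (adjusted p = 0.0257, in a fit that called 0.705% of all genes), -0.85 among high-18S arrays and -0.67 among the remaining ones. The call was lost in either set alone, with median scaling, an offset of 100, no filter, the mean of probe sets, no trend, only the groups compared or the 3'/5' ratio as a covariate. All 6 recurrences lay below every TI-K primary, a difference of -1.47 ± 0.22 (limma adjusted p = 1.58e-04, and 0.204 with the block). How many of all genes separate so was not counted, and limma called 6.73% of all genes lower in that comparison. The count of pathway genes called in recurrences against TI-KM primaries fell to 0 without recurrence 1, 2 or 3, without TI-KM primary 1, 3, 4, 8, 10, 12, 13 or 14, or without TI-K primary 1, 3 or 5.

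Of the 21 measured HIF pathway genes and hypoxia targets limma called 0 in recurrences against TI-KM primaries, also with the sets as a block, with 3 at an unadjusted p below 0.05 in either fit and a median difference of -0.06. The 11 other hexose transporters had 0 calls by limma (3 unadjusted) and a median of 0.38. The 14 other glycolysis enzymes had 0 (4 unadjusted) and -0.03, and the 11 genes of pyruvate dehydrogenase with its kinases and phosphatases 0 (0 unadjusted) and 0.04. The median of the hexose transporters shrank to 0.11 with the sets as a block, 0.10 among high-18S arrays and 0.15 among the remaining arrays. Egln3, the HIF prolyl hydroxylase that HIF itself induces, had 783, 3296 and 3157 in recurrences 1 to 3 and 332, 286 and 207 in recurrences 4 to 6, where TI-KM primaries had 190 to 2772 with a median of 785. It was chosen after its values were seen. Thus recurrences 2 and 3 lay above, and recurrences 4 to 6 near the low end of, the TI-KM primaries. In recurrences 2 and 3, 11.5% and 11.1% of all genes lay above every TI-KM primary. Of the 21 HIF pathway genes and hypoxia targets, only 6 had a difference above 0 between recurrences and TI-KM primaries.

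Against TI-K primaries, 7 of the 80 genes were higher in recurrences and 6 lower, where limma called 12.2% of all genes higher and 6.73% lower. Higher were the transporters Slc2a12 (1.28, limma adjusted p = 0.0224) and Slc2a10 (1.15, adjusted p = 0.0098), the lactate dehydrogenase subunit Ldhb (0.81), the muscle phosphofructokinase Pfkm (0.57), the glycogen branching enzyme Gbe1 (0.84), the pentose isomerase Rpia (0.42) and the hypoxia-induced carbonic anhydrase Car9 (0.72). Lower, beside Pfkfb2, were Bpgm (-1.29), Eno3 (-0.97), Hkdc1 (-0.82), the histone demethylase Kdm3a (-1.58, adjusted p = 0.00175) and the prolyl hydroxylase Egln2 (-0.75). With the sets as a block limma called 0 of the 80, with 10 at an unadjusted p below 0.05, and 0.0959% of all genes. The block values were 1.18 for Slc2a12, 0.90 for Slc2a10, -0.89 for Kdm3a and 0.01 for Car9.

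Between TI-KM and TI-K primaries 2 of the 80 were higher and 2 lower, where limma called 5.5% higher and 2.51% lower. The aldolase Aldoa (0.40 ± 0.10 SE, limma adjusted p = 0.0169) and Pfkm (0.40 ± 0.13, adjusted p = 0.0464) were higher. Pfkfb2 (-0.58 ± 0.18, adjusted p = 0.0452) and Kdm3a (-0.88 ± 0.26, adjusted p = 0.0343) were lower. With the sets as a block limma called 0, with 4 at an unadjusted p below 0.05, and had Aldoa at 0.21, Pfkm at 0.22, Pfkfb2 at -0.02 and Kdm3a at -0.36.

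Against the normal lung more of the other pathway genes were called lower than higher, and most were not called. In recurrences 6 were higher and 22 lower, in TI-KM primaries 9 and 23, and in TI-K primaries 8 and 21, where limma called 6.4%, 7.69% and 6.7% of all genes higher and 6.06%, 7.16% and 6.79% lower. The genes of the pyruvate dehydrogenase gate were lower in 7, 8 and 8 of 11 cases. Pdk4, the kinase induced by fasting, stood at -5.27, -5.69 and -5.67 in recurrences, TI-KM primaries and TI-K primaries, and Dlat, a subunit of the complex, at -3.47, -3.49 and -3.48, with 11200 in the normal lung and at most 1264 in any tumour. The kinase Pdk3 was higher, at 461 to 1355 in recurrences, 163 to 988 in TI-KM primaries, 638 to 950 in TI-K primaries and 133 in the normal lung (2.46, 1.99 and 2.35, limma adjusted p = 0.00671, 0.0188 and 0.00704).

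Among transporters, Slc2a4, the insulin-responsive GLUT4 of fat and muscle, stood at -4.70, -5.08 and -5.63 in the 3 groups in the same order (normal lung signal 3788). The fructose transporter Slc2a5 stood at -3.55, -3.70 and -4.70, and the sodium-coupled glucose transporter Slc5a1 at 2.17, 3.25 and 2.83. Slc16a1, the lactate transporter MCT1, stood at -2.27, -2.47 and -2.57, and Mpc1, of the mitochondrial pyruvate carrier, at -1.71, -2.04 and -2.08. Bsg, the chaperone of MCT1 and MCT4, was higher in recurrences and TI-KM primaries, at 1.48 and 1.40. Of the glycolysis enzymes, the hexokinase Hkdc1 stood at 1.78, 2.44 and 2.60 and Ldhb at -2.27, -2.75 and -3.08. Bpgm stood at -2.19 in recurrences, the liver phosphofructokinase Pfkl at -1.90 in TI-KM primaries and -1.84 in TI-K primaries, and Aldoc at 1.65 in TI-KM primaries and 1.62 in TI-K primaries. All of these passed limma in the groups named. Pfkfb4, an isoform known to be induced by hypoxia, was higher by 2.02, 2.48 and 2.46 (limma adjusted p = 5.46e-04, 1.78e-05 and 3.17e-05).

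Of 13 glycogen and pentose phosphate genes limma called 6, 5 and 4 lower and 0 higher, with 8, 9 and 9 at an unadjusted p below 0.05, led by Gbe1 at -2.73, -3.44 and -3.57. The glycogen phosphorylase Pygl stood at -2.54 in recurrences and -2.47 in TI-KM primaries, and the transketolase Tkt at -1.94 in TI-K primaries. Of 21 HIF pathway genes, Car9 was higher in recurrences (1.51), and Ankrd37, P4ha2 and Hif1a in TI-KM primaries (2.90, 1.74 and 1.02) and Ankrd37, P4ha1 and Hif1a in TI-K primaries (2.80, 1.73 and 1.19). The fat, erythroid and other marker values of the normal lung given above apply to each of these groups too, and Slc2a4 and Pdk4 are abundant in fat and muscle.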

How the data were processed

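The deposited value table holds intensities, 1 signal per probe set and array on a linear scale, which the authors made with MAS5, per the submitters' processing notes. No MAS5 version was given in the sources used here. Per the labels' protocols, total RNA was extracted with RNeasy columns, amplified in a 2-cycle target preparation and labelled with biotin. All arrays had the same 2% trimmed mean, 500.003, and were not scaled again. There are 45101 probe sets, although the MOE430A 2.0 array is named in the series text. The platform annotation named 1 gene for 34945 of them, several for 932 and none for 9160, and 64 were controls; 34741 were matched to RefSeq genes of GRCm38.p6.

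An offset of 20, close to the 20th percentile of all values (19.7), was added before the log2. Of the probe sets naming 1 gene, 26221 passed the filter, and the one with the highest mean stood for each of 14602 genes. All 29 arrays, in 4 groups, entered 1 limma fit with a variance trend (limma 3.58.1, version 1.17.8 of data.table, R 4.3.3), with Benjamini-Hochberg adjustment over all genes; the model was tested on simulated data. Python 3.11.15 with pandas 2.3.3 and matplotlib 3.10.9 served for sequences and figures. No arrays were identical; the closest pair correlated at 0.981. The number of arrays limits the precision, as arrays have no depth.

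The text names the 10 genes, Mad2l1, up to 2 higher and 2 lower called genes with the largest change from each of 7 pathway lists and comparison, and the 5 genes most correlated with Slc2a3. Egln3, Hif1a and, against TI-K primaries, Hkdc1 fall outside this rule and were chosen after their values were seen. Members, lists, sets and rules were chosen with earlier results of these data known. One transgene is not named here. Slc2a3 was not tested in any comparison with recurrences, and no member in recurrences against primaries. The tests of Slc2a3 between primaries, and of primaries against the normal lung, use values behind its choice and are not independent of it. Alternatives were other offsets, scalings, filters, variance models and probe set choices, only the groups compared, the 3'/5' ratio as a covariate, the sets as a block or alone, TI-KM primaries 1 and 2 averaged, and each tumour array left out.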

Additional observations from a re-analysis of the deposited data

Results flagged for a closer look

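The Pgk1 signal of recurrence 4 stood apart from the other 5 recurrences. It was 8034, and the nearest of the others was 13667, a gap of 0.695 of the group's whole range on the log2(signal + 20) scale, past the 95% critical value of Dixon's test for 6 samples. On the linear signal scale the gap was 0.611 of the range and did not pass it. The 10 genes in recurrences and in TI-K primaries made 20 groups of a size that the test allows, and chance passes about 1 in 20 such groups. The same array had a strong 18S control signal and lay within the range of the TI-KM primaries for 9 of the 10 genes.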

How the results depend on the processing

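No paired analysis was possible because replicate numbers were given in accession order and pair no samples across groups. Slc2a3 kept its sign in recurrences against TI-KM primaries under 13 alternatives (2.19 to 3.97) and with each tumour left out (2.56 to 3.53), and against TI-K primaries under 12 (1.89 to 3.67; 1.61 to 2.58); it had no value without _x_at and _s_at probe sets. Among the remaining arrays the differences from TI-KM primaries were -0.10 for Pfkfb3, -0.084 for Pfkp and -0.74 for Slc2a1, and among high-18S arrays Pfkp had 1.37. Those from TI-K primaries with the sets as a block, and among the remaining arrays, were 0.082 and -0.055 for Hk1, -0.63 and -0.46 for Pdk1, and -0.75 and -1.01 for Slc16a3; the remaining arrays gave -0.50 for Pfkp and -0.93 for Slc2a1. The 1 pathway gene called in recurrences against TI-KM primaries became 0 with offset 100, median scaling, no filter, the mean of probe sets, no trend, only the groups compared, either set alone or the 3'/5' covariate, and 0 to 2 with 1 array left out. Between TI-KM and TI-K primaries, the 1 member called became 0 with median scaling, the block, the remaining arrays or TI-KM primaries 1 and 2 averaged, and 0 to 2 with 1 array left out, 2 without TI-K primary 6 or 8. The 4 pathway genes became 2 with median scaling, 10 with quantile normalization, 2 without a filter, 7 with only the groups compared, 0 with the block or the remaining arrays and 1 with that average, and 0 to 8 with 1 array left out; they were 8 without TI-KM primary 13, 0 without TI-K primary 4, 1 without TI-KM primary 1 or 2 or TI-K primary 1, 2, 3 or 5, and 2 without TI-KM primary 4, 5, 6 or 14 or recurrence 4. Members called against the normal lung became, in recurrences, 0 with median scaling, only the groups compared or the high-18S arrays and 3 with the remaining tumours (1 to 1 with 1 array left out); in TI-KM primaries 5 with only the groups compared or the remaining tumours (3 to 4); and in TI-K primaries 0 with median scaling, 1 with the mean of probe sets and 4 with the remaining tumours (2 to 3). Fits with fewer arrays have larger errors; otherwise the cause was not tested. Median scaling moved the calls of all genes against the normal lung to 1071, 1393 and 1202, from 1819, 2169 and 1969, and the share higher between TI-KM and TI-K primaries to 76.1%, where the deposited scaling gave 68.6%. The normal lung is 1 array, and 2 recurrences and 3 TI-K primaries carry the comparisons within the remaining arrays. Those 3 TI-K primaries also carry the block comparisons with their group.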
